A study of Homo sapiens with 24 samples.

Results

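The genes described here, grouped as interferon-inducible members of the PARP family, are PARP8, PARP9, PARP10, PARP11, PARP12 and PARP14, together with DTX3L, the protein partner of PARP9. The name is that of the set, and PARP8 and PARP11 were not called in any comparison of treatments. All members were chosen by gene symbol, with earlier results of these data known. The 7 symbols matched 7 of the 58735 genes in the deposited count table. Polyadenylated RNA had been sequenced in 24 libraries of THP-1 and MOLM-13, established acute myeloid leukemia cell lines that both carry the MLL-AF9 fusion. In each line there were 3 libraries of each of 4 treatments, all for 72 h: L-ascorbic acid (vitamin C, abbreviated LAA) at 250 µM, olaparib at 1 µM, the combination of both at those doses, and vehicle (PBS with DMSO). LAA had been dissolved in PBS and olaparib in DMSO, and no genetic change had been made to either line. Nothing in the labels says that replicates came from separate cultures, so p-values measure the spread between these libraries, which may be technical.

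PARP enzymes transfer ADP-ribose from NAD to other molecules. PARP1 and PARP2, the targets of olaparib, build chains of it at broken DNA, whereas most of the enzymes described here attach a single unit and are known as mono-ADP-ribosyltransferases. Interferon acts through JAK kinases and STAT and IRF transcription factors, which bind interferon-stimulated response elements (ISRE) and gamma-activated sites (GAS) in promoters, and several of these PARP genes are known as interferon-stimulated genes with antiviral roles. DTX3L is a ubiquitin ligase of the deltex family that forms a complex with PARP9.

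Libraries held 18666259 to 25265870 counts over genes, and 15186 to 15960 genes reached 10 counts. Mitochondrially encoded genes took 7.31 ± 0.381% of counts with LAA, 6.81 ± 0.271% with olaparib, 8.38 ± 0.941% with the combination and 7.09 ± 0.35% with vehicle in THP-1 (SD, n = 3 each). In libraries labelled MOLM-13 they took 7.58 ± 0.568% with LAA, 9.29 ± 1.51% with olaparib, 9.08 ± 0.303% with the combination and 6.71 ± 0.0329% with vehicle. Myeloid markers were abundant in every group, with a summed level of 418 to 754 CPM (counts scaled to library size). The T and NK cell list summed to 5.02 to 17.8 CPM, nearly all of it NKG7, B cell markers to 3.63 to 5.90 CPM, and the erythroid marker HBB stood at 0. The summed myeloid level was 754 CPM with the combination and 542 CPM with vehicle in THP-1, where CD14 and LYZ rose and ITGAM and CSF1R fell. In labelled MOLM-13 it was 447 CPM with the combination and 475 CPM with vehicle, where LYZ rose and ITGAM and CSF1R fell. The part of these shifts in the results below was not tested.

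The libraries labelled MOLM-13 differed among themselves in genes that THP-1 hardly uses. These were 15 genes that code for proteins, spread over 10 chromosomes, whose counts totalled no more than 12 in all 12 libraries of THP-1 and 20 or more in the 3 labelled MOLM-13 libraries with olaparib. They summed to 5.34 ± 0.5 CPM with LAA, 19.2 ± 1.37 CPM with olaparib, 4.09 ± 1.04 CPM with the combination and 31.6 ± 0.889 CPM with vehicle in labelled MOLM-13 (SD, n = 3 each). In THP-1 the level had to be low by the choice of these genes, and no group averaged more than 0.361 CPM. The olaparib libraries of labelled MOLM-13 also entered that choice, and its LAA, combination and vehicle libraries did not. Of the KMT2A (MLL) fusion program markers, MEIS1 moved with this sum, at 0.424 ± 0.133 CPM with LAA, 1.82 ± 0.155 CPM with olaparib, 0.312 ± 0.214 CPM with the combination and 3.69 ± 0.946 CPM with vehicle in labelled MOLM-13, and at most 0.206 CPM in any THP-1 group. HOXA9 fell there with LAA (−0.35 ± 0.09; adjusted p = 0.0498) and with the combination (−0.34 ± 0.09; adjusted p = 0.0159, edgeR). The LAA value lies just under the threshold of 0.05. Unlike MEIS1, HOXA9 was not low in THP-1. Both markers summed there to 50.015 to 54.737 CPM by group, nearly all of it HOXA9. In labelled MOLM-13 HOXA9 had 45.8 ± 4.11 CPM with LAA, 46.1 ± 1.82 CPM with the combination and 58.3 ± 3.8 CPM with vehicle. With vehicle its log2 difference between the lines was −0.094 (THP-1 minus labelled MOLM-13), not called. The cause of its fall was not tested. Both lines also shared nearly all detected genes: of 12136 protein-coding genes with at least 60 counts over the 3 THP-1 vehicle libraries, 1 had at most 3 counts in the 3 labelled MOLM-13 vehicle libraries, and of 12165 in the other direction 11 did. Every labelled MOLM-13 library with LAA or the combination carried the lower level, so no comparison of these treatments could be made without them. Whether THP-1 cells are present in the libraries labelled MOLM-13, and in what share, was not tested, and it bears on every value of those libraries and on every difference between the lines. A change in the cells present and a change in RNA per cell cannot be told apart in bulk RNA, and the line is therefore given as labelled MOLM-13 throughout.

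Promoter windows are shown for 3 genes in which ISRE letters were found and for 1 without them. RefSeq windows on GRCh38.p14, from 250 bases before to 50 bases after an annotated start, were found for 6 of the 7 genes, 9 windows in all. The letters GAAANNGAA (the ISRE core) and TTCNNNGAA (GAS) were searched on both strands, and capitals mark the matches. Over all 35116 windows in the same table, 8.11% held the ISRE letters and 7.66% the GAS letters, or 9.86% and 9.38% of 27305 genes. The window of DTX3L lies at chr3:122564088-122564387 on the plus strand, that of PARP14 at chr3:122680589-122680888 on the plus strand, that of PARP12 at chr7:140062902-140063201 on the minus strand, and that of PARP11, shown as a window with no match, at chr12:3873350-3873649 on the minus strand.
DTX3L: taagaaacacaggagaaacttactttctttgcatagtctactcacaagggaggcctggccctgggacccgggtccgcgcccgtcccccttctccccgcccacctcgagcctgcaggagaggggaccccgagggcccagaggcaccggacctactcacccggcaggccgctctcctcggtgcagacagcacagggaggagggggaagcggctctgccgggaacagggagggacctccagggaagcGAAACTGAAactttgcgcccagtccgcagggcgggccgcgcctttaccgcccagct
PARP14: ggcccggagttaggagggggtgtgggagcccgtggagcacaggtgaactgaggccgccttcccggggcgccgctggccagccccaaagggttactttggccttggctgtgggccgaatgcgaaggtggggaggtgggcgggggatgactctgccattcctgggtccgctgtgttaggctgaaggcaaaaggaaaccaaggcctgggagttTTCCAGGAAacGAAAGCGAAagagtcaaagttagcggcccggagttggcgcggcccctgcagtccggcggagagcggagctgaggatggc
PARP12: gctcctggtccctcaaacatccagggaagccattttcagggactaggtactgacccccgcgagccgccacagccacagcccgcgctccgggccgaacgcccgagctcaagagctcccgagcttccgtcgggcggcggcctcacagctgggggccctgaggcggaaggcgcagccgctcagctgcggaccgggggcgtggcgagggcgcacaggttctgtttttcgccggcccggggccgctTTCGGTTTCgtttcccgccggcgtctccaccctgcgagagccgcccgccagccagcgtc
PARP11: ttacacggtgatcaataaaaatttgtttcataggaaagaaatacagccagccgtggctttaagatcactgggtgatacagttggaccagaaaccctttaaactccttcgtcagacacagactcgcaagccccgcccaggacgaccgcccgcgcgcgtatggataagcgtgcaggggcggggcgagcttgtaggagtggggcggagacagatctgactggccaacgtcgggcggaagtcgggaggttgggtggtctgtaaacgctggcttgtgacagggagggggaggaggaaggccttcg

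The ISRE core was matched in 4 of the 6 genes with a window. The gene without a window is PARP10, which rose with the combination in THP-1, so its promoter was not searched. PARP9 and DTX3L, which are transcribed away from each other, share 1 match at chr3:122564332-122564340. It lies 40 to 32 bases before the second PARP9 start, and it begins 6 bases before the DTX3L start. In PARP14 the match stood 29 to 21 bases before the start, and the only GAS match among these windows lay just upstream of it, 40 to 32 bases before the start. In PARP12 the match was 9 to 1 bases before the start, on the other strand. The single window of PARP11, the 3 windows of PARP8 and the other PARP9 window held neither motif. A match describes letters in a window and not binding.

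**Figure D1:**
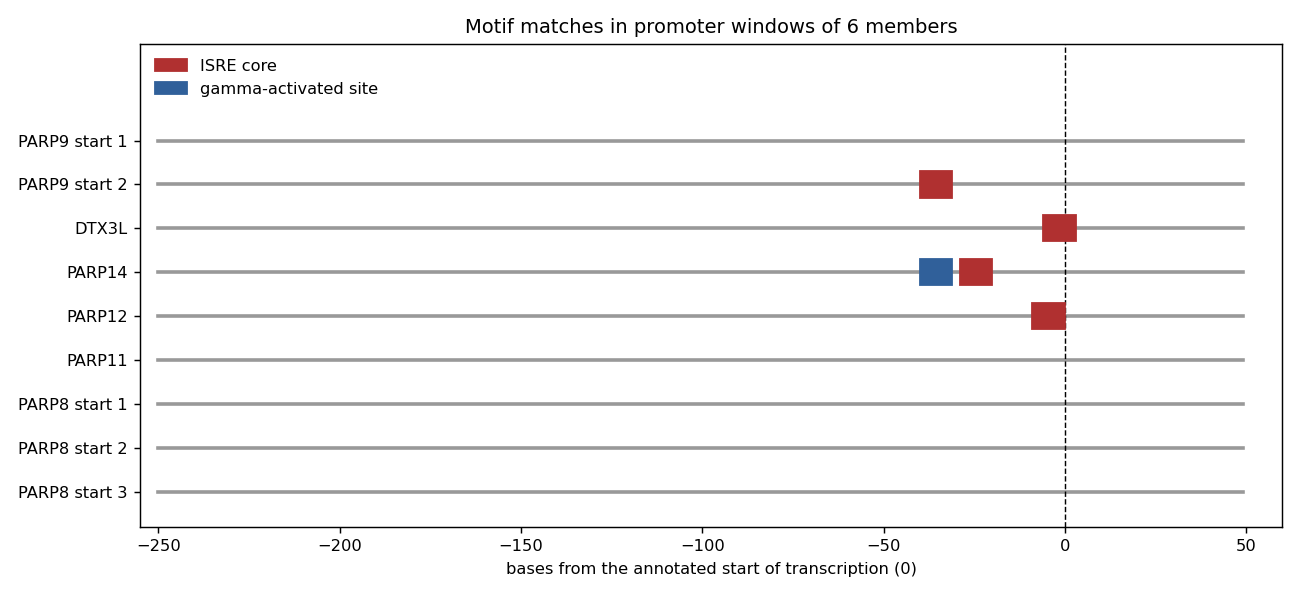
Position of ISRE core and GAS matches in the promoter windows of 6 genes, in bases from the annotated start of transcription, 1 line per window. Matches lie within 40 bases of a start in PARP9, DTX3L, PARP14 and PARP12, and the windows of PARP11 and PARP8 are empty.

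PARP9, which carries macrodomains that bind ADP-ribose, had the largest fold change of the 7 genes in THP-1. Its levels there were 57.2, 55.7 and 69.5 CPM with LAA, 50.2, 45.2 and 47.7 CPM with olaparib, 139, 138 and 130.4 CPM with the combination, and 37.2, 27.7 and 38.2 CPM with vehicle. All 9 treated libraries stood above all 3 vehicle libraries, and the combination libraries stood far above the rest. In labelled MOLM-13 it had 23.0, 23.6 and 19.4 CPM with LAA, 22.9, 21.1 and 24.2 CPM with olaparib, 45.5, 57.7 and 41.8 CPM with the combination, and 19.3, 19.96 and 18.1 CPM with vehicle. There the combination libraries again stood far above the rest. All 3 olaparib libraries also lay above all 3 vehicle libraries, by a narrow margin, while the LAA libraries overlapped vehicle.

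Over vehicle in THP-1, PARP9 rose 1.76-fold with LAA (log2 difference 0.82 ± 0.10, SE; adjusted p = 4.6e-06, edgeR), 1.39-fold with olaparib (0.47 ± 0.10; adjusted p = 0.0267) and 3.93-fold with the combination (1.97 ± 0.10; adjusted p = 6.51e-15). The olaparib call did not hold without vehicle replicate 2 (log2 difference 0.34, adjusted p = 0.339) or without olaparib replicate 1 (0.44, adjusted p = 0.180, edgeR). In labelled MOLM-13 the combination raised PARP9 2.53-fold (1.34 ± 0.12; adjusted p = 2.48e-07, edgeR). LAA gave 0.20 ± 0.12 there and olaparib 0.25 ± 0.12, neither called by edgeR (adjusted p = 0.479 and 0.601).

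DTX3L, the ligase partner, had 85.9, 79.8 and 89.5 CPM with LAA, 82.4, 73.5 and 71.8 CPM with olaparib, 137, 146 and 141 CPM with the combination, and 68.1, 64.5 and 67.3 CPM with vehicle in THP-1. Each treated group lay wholly above vehicle. Labelled MOLM-13 libraries had 56.8, 57.0 and 53.0 CPM with LAA, 60.6, 51.9 and 64.7 CPM with olaparib, 77.7, 84.5 and 72.6 CPM with the combination, and 50.2, 55.3 and 54.3 CPM with vehicle. Only the combination was separate from vehicle in labelled MOLM-13. In THP-1 it rose 2.10-fold with the combination (1.07 ± 0.07; adjusted p = 2.03e-12) and 1.27-fold with LAA (0.35 ± 0.07; adjusted p = 0.00526, edgeR). The LAA call was lost without LAA replicate 3 (adjusted p = 0.0597) and without vehicle replicate 2 (adjusted p = 0.0547, edgeR). Olaparib gave 0.19 ± 0.07, not called (adjusted p = 0.379). In labelled MOLM-13 the combination raised DTX3L 1.47-fold (0.56 ± 0.09; adjusted p = 0.000382, edgeR).

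PARP9 (chr3:122527924-122564577) and DTX3L (chr3:122564238-122575203, both hg38) overlap head to head, and 217 exonic bases belong to both. The library kit does not mark the strand, so reads from those bases cannot be assigned to one gene, and both values are uncertain to that extent. The shared bases are a small part of the 8938 exonic bases of PARP9 and the 5868 of DTX3L.

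**Figure D2:**
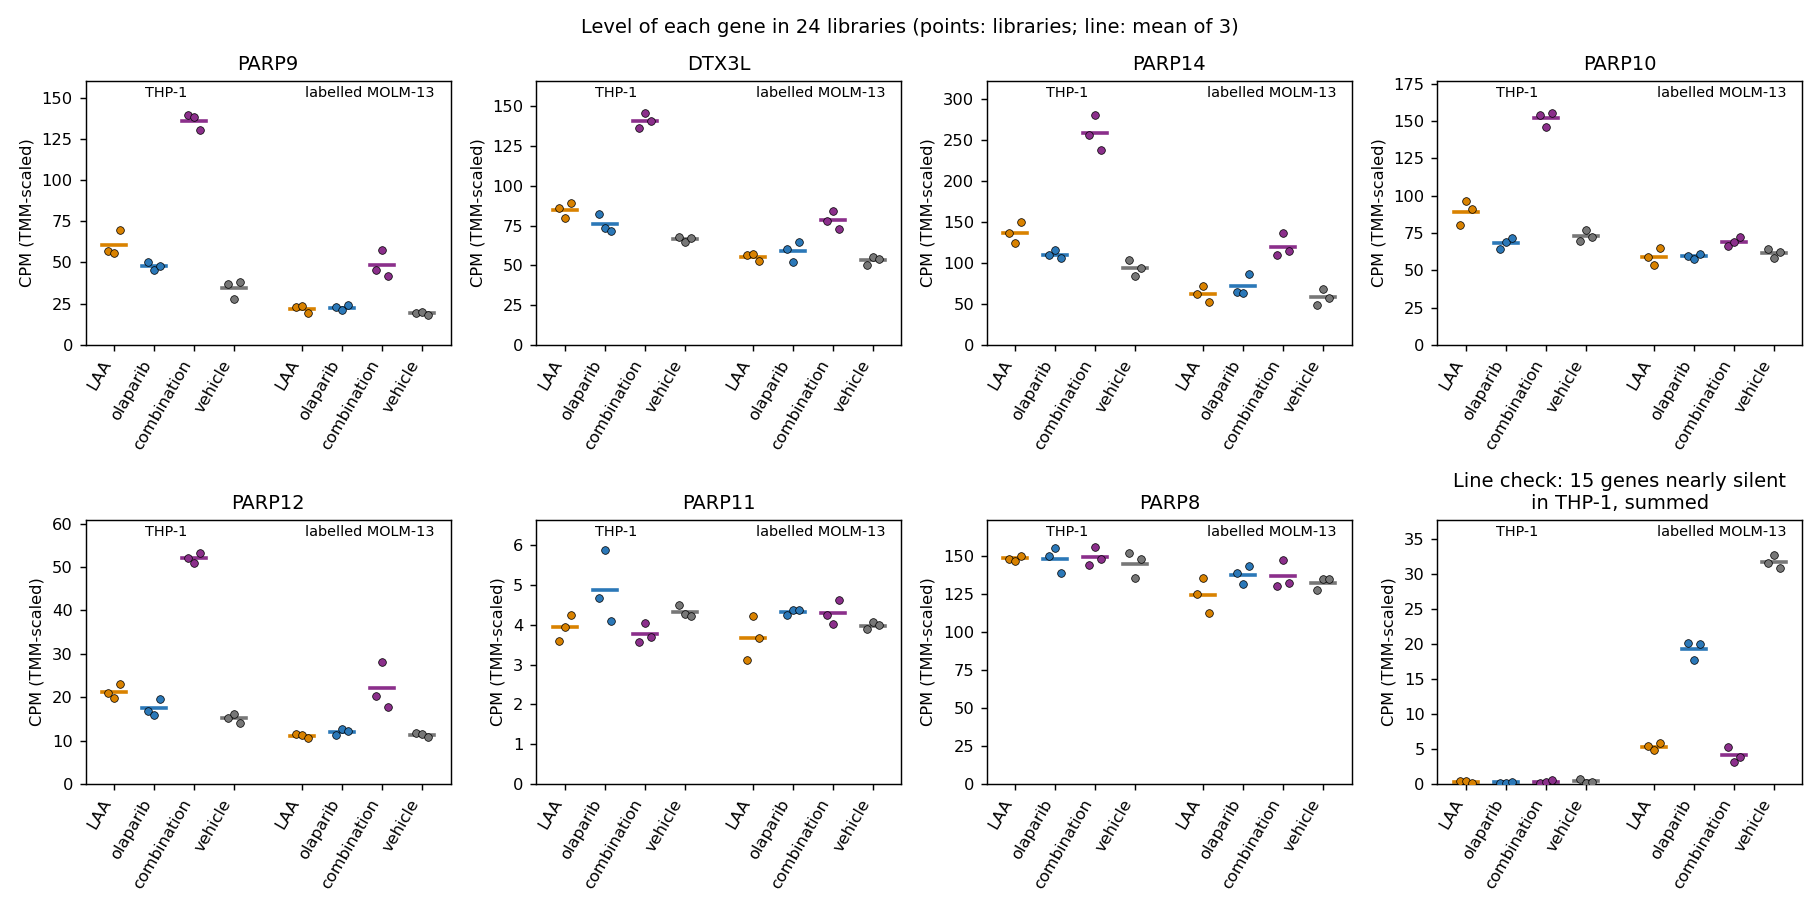
Level of the 7 genes in every library, in CPM with TMM scaling, with groups of THP-1 at the left and of labelled MOLM-13 at the right of each panel; points are libraries, lines are means of 3, and the last panel sums the 15 genes of the line check. Combination libraries of THP-1 are highest for PARP9, DTX3L, PARP14, PARP10 and PARP12, and for PARP11 and PARP8 each group overlaps its neighbour in the order of means.

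PARP14, a mono-ADP-ribosyltransferase with macrodomains known for its part in STAT6 signalling, rose with LAA and the combination in THP-1 and with the combination in labelled MOLM-13. THP-1 libraries had 136, 124 and 150.1 CPM with LAA, 109.6, 115.5 and 105.7 CPM with olaparib, 256, 281 and 238 CPM with the combination, and 103.4, 84.0 and 93.9 CPM with vehicle. No treated library fell within the vehicle range. Labelled MOLM-13 libraries had 62.4, 71.4 and 52.5 CPM with LAA, 65.1, 63.9 and 86.0 CPM with olaparib, 109.2, 137 and 114 CPM with the combination, and 48.9, 68.2 and 57.0 CPM with vehicle. There LAA and olaparib overlapped vehicle and the combination did not. PARP14 rose 2.73-fold with the combination in THP-1 (1.45 ± 0.08; adjusted p = 6.93e-14) and 2.07-fold in labelled MOLM-13 (1.05 ± 0.14; adjusted p = 2.86e-05, edgeR). With LAA it rose 1.46-fold in THP-1 (0.54 ± 0.08; adjusted p = 0.000127, edgeR) and differed by 0.10 ± 0.14 in labelled MOLM-13 (adjusted p = 0.796). Olaparib gave 0.23 ± 0.08 in THP-1 and 0.31 ± 0.14 in labelled MOLM-13, neither called by edgeR (adjusted p = 0.313 and 0.575).

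PARP12, a zinc-finger mono-ADP-ribosyltransferase with antiviral activity, had the second largest fold change with the combination in THP-1. It had 20.9, 19.8 and 22.9 CPM with LAA, 16.9, 15.9 and 19.5 CPM with olaparib, 52.1, 50.8 and 53.2 CPM with the combination, and 15.2, 16.1 and 14.01 CPM with vehicle in THP-1. LAA and combination libraries were clear of vehicle, and olaparib libraries overlapped it. In labelled MOLM-13 it had 11.4, 11.4 and 10.6 CPM with LAA, 11.4, 12.6 and 12.2 CPM with olaparib, 20.2, 28.2 and 17.7 CPM with the combination, and 11.9, 11.5 and 10.8 CPM with vehicle. The combination libraries spread widely there but none reached down to vehicle. PARP12 rose 3.42-fold with the combination in THP-1 (1.78 ± 0.10; adjusted p = 1.08e-13) and 1.94-fold in labelled MOLM-13 (0.96 ± 0.14; adjusted p = 0.000155, edgeR). With LAA it rose 1.40-fold in THP-1 (0.49 ± 0.10; adjusted p = 0.00863), a call lost without LAA replicate 3 (adjusted p = 0.0896) or vehicle replicate 3 (adjusted p = 0.0681, edgeR). LAA gave −0.03 ± 0.15 in labelled MOLM-13 (adjusted p = 0.945), and olaparib gave 0.21 ± 0.10 in THP-1 (adjusted p = 0.535) and 0.09 ± 0.15 in labelled MOLM-13 (adjusted p = 0.906, edgeR).

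PARP10, a mono-ADP-ribosyltransferase first described as a partner of MYC, rose with LAA and with the combination in THP-1 and was not called in labelled MOLM-13. THP-1 libraries had 80.4, 96.4 and 90.9 CPM with LAA, 64.1, 68.7 and 71.9 CPM with olaparib, 154, 146 and 156 CPM with the combination, and 69.4, 77.2 and 72.1 CPM with vehicle. LAA and combination libraries lay above vehicle, and olaparib libraries overlapped it. Labelled MOLM-13 libraries had 59.0, 53.7 and 65.1 CPM with LAA, 59.6, 57.9 and 60.8 CPM with olaparib, 66.1, 68.8 and 72.4 CPM with the combination, and 64.4, 58.1 and 62.5 CPM with vehicle. The combination libraries were above vehicle by a narrow margin. PARP10 rose 2.07-fold with the combination in THP-1 (1.05 ± 0.07; adjusted p = 9.42e-12, edgeR) and differed by 0.17 ± 0.08 in labelled MOLM-13, which was not called (adjusted p = 0.223). With LAA it rose 1.22-fold in THP-1 (0.29 ± 0.07; adjusted p = 0.0406, edgeR), and this call was lost in 10 of 20 alternatives. Those included leaving out LAA replicate 2 or 3 (adjusted p = 0.144 and 0.172), vehicle replicate 1, 2 or 3 (0.193, 0.0616 and 0.143), olaparib replicate 1 (0.0505) or combination replicate 1 (0.0510, edgeR). Olaparib gave −0.09 ± 0.07 in THP-1 (adjusted p = 0.762), and in labelled MOLM-13 LAA gave −0.06 ± 0.08 and olaparib −0.05 ± 0.08 (adjusted p = 0.817 and 0.899, edgeR).

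Part of PARP10 lies over other genes. It shares 324 exonic bases with GRINA and 197 with SPATC1, both on the opposite strand, out of 6033, so its count is uncertain without strand. GRINA, which had 71598 counts over the 24 libraries, rose with the combination in THP-1 (0.45 ± 0.06; adjusted p = 3.83e-06, edgeR) and gave 0.06 ± 0.07 in labelled MOLM-13 (adjusted p = 0.634). SPATC1 had 213 counts in all.

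PARP11 and PARP8 were not called in any comparison of treatments. PARP11, a WWE-domain mono-ADP-ribosyltransferase, had the lowest FPKM of the 7. Its levels were 3.60, 3.95 and 4.26 CPM with LAA, 4.67, 5.90 and 4.09 CPM with olaparib, 3.56, 4.05 and 3.70 CPM with the combination, and 4.49, 4.27 and 4.22 CPM with vehicle in THP-1. In labelled MOLM-13 it stayed between 3.12 and 4.63 CPM in all 12 libraries. The combination libraries of THP-1 all lay below vehicle, with a log2 difference of −0.21 (−0.60 to 0.19, 1.96 SE either side; adjusted p = 0.489, edgeR). At 226 to 308 counts per group the change in PARP11 was measured loosely, and any change within that interval remains possible.

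PARP8, a mono-ADP-ribosyltransferase whose cellular role is little described, was measured far more precisely. It had 148, 147 and 150.1 CPM with LAA, 150.1, 155 and 139 CPM with olaparib, 144, 156 and 148 CPM with the combination, and 152, 135 and 148 CPM with vehicle in THP-1. These ranges overlap, and in labelled MOLM-13 the 12 libraries ran from 112 to 147 CPM, also with overlap. The log2 difference of the combination from vehicle was 0.03 in THP-1 (−0.09 to 0.16; adjusted p = 0.768) and 0.05 in labelled MOLM-13 (−0.11 to 0.20, 1.96 SE either side; adjusted p = 0.766, edgeR). Both intervals leave out the smallest called change with the combination, 0.56 for DTX3L in labelled MOLM-13.

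**Figure D3:**
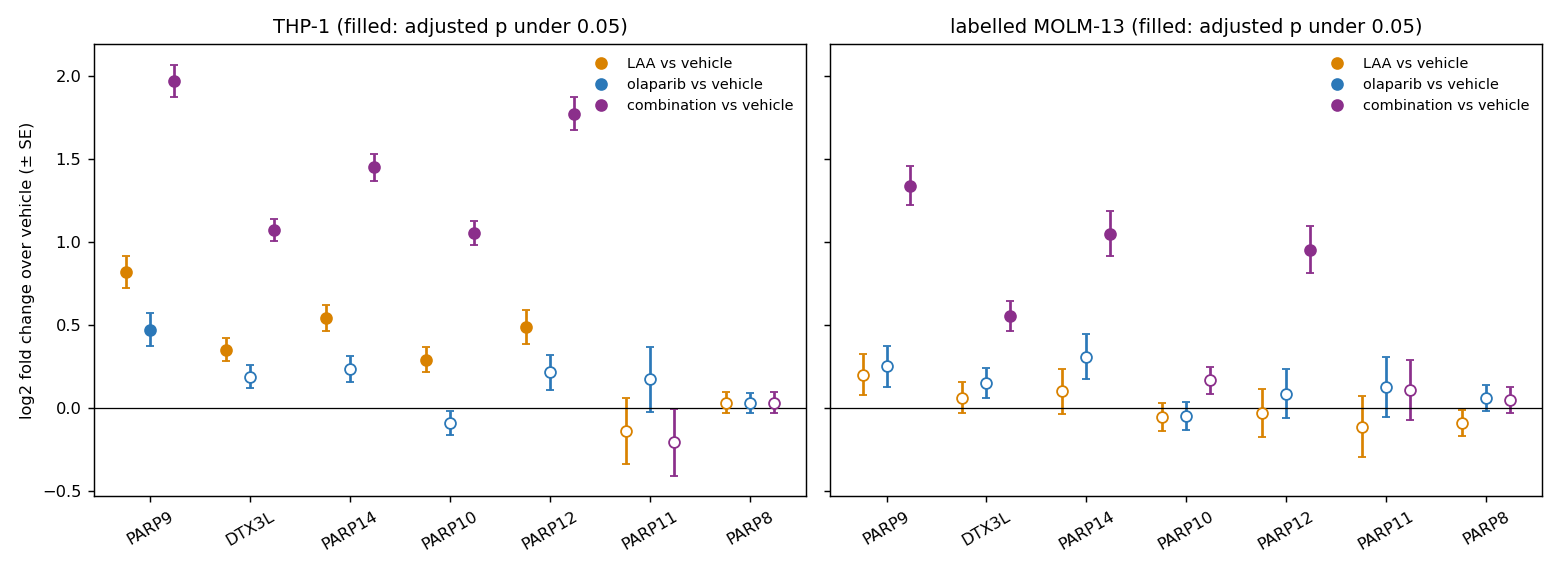
Log2 fold change of each treatment over vehicle for the 7 genes, with its standard error, in THP-1 (left) and labelled MOLM-13 (right); filled points passed an adjusted p of 0.05 and open points did not. Combination points run up to 1.97 in THP-1 and 1.34 in labelled MOLM-13, both PARP9, and all points of PARP11 and PARP8 are open.

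Counted over the 7 genes, LAA in THP-1 raised 5 and lowered 0, where 1.49% of all 16331 genes tested were called in either direction. Olaparib raised 1 and lowered 0 (background 0.269%), and the combination raised 5 and lowered 0 (background 27.1%). The count of 5 with LAA was 2 without LAA replicate 3 and 3 without vehicle replicate 2 or 3, and the count of 1 with olaparib was 0 without vehicle replicate 2 or olaparib replicate 1. In labelled MOLM-13, LAA moved 0 of 7 (background 1.88%), with 0 at an unadjusted p under 0.05 in edgeR and 0 called by DESeq2. Olaparib moved 0 of 7 (background 0.00619%), with 1 at an unadjusted p under 0.05 in edgeR, PARP14, and 0 called by DESeq2. The combination raised 4 and lowered 0 (background 12.2% of 16160 genes). The median log2 difference of the 7 with the combination was 1.07 in THP-1 and 0.56 in labelled MOLM-13, against −0.01 and 0.00 over all genes tested. The comparisons with vehicle share their vehicle libraries, and the genes were chosen with earlier results of these data known.

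Across genes, levels were compared per length with the authors' FPKM. With the combination in THP-1, PARP10 had 25.02 ± 0.83, PARP14 24.4 ± 2.06, DTX3L 23.8 ± 0.759, PARP9 15.1 ± 0.567, PARP8 14.7 ± 0.581, PARP12 8.21 ± 0.179 and PARP11 0.603 ± 0.0392 FPKM. With vehicle, PARP8 stood highest at 14.3 ± 0.837 FPKM, above PARP10 at 11.98 ± 0.665, DTX3L at 11.3 ± 0.314, PARP14 at 8.86 ± 0.904, PARP9 at 3.81 ± 0.637, PARP12 at 2.38 ± 0.167 and PARP11 at 0.692 ± 0.0225 FPKM (SD, n = 3 each). PARP8 was thus above the other 6 in mean with vehicle and below PARP10, PARP14 and DTX3L with the combination. These 3 overlap in range with the combination, and so do PARP9 and PARP8. In labelled MOLM-13 PARP8 led with both treatments, at 13.5 ± 0.918 FPKM with the combination and 13.1 ± 0.405 FPKM with vehicle. DTX3L followed with the combination at 13.2 ± 1.02 FPKM, within the range of PARP8.

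Within each gene, the order of the 8 groups by mean CPM had the THP-1 combination first, clear of the next group, for PARP9, DTX3L, PARP14, PARP10 and PARP12. For PARP9, DTX3L and PARP14 the next groups were THP-1 LAA, labelled MOLM-13 combination and THP-1 olaparib, each overlapping its neighbour. For PARP10 the labelled MOLM-13 combination, at 69.1 ± 3.19 CPM, came below THP-1 vehicle at 72.9 ± 3.99 CPM, and these overlapped. For PARP12 the labelled MOLM-13 combination, at 22.01 ± 5.48 CPM, overlapped THP-1 LAA at 21.2 ± 1.59 CPM. For PARP11 and PARP8 every group overlapped its neighbour in the order.

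The combination was then set against each agent alone. Against LAA in THP-1, 5 of 7 genes were higher and 0 lower (background 20.3%), from 0.72 ± 0.07 for DTX3L to 1.29 ± 0.10 for PARP12 (adjusted p = 6.3e-09 and 7.19e-11, edgeR). Against olaparib in THP-1, 5 were higher and 0 lower (background 24.2%), from 0.88 ± 0.07 for DTX3L to 1.56 ± 0.10 for PARP12 (adjusted p = 1.33e-10 and 1.91e-12, edgeR). In labelled MOLM-13, 4 were higher and 0 lower against LAA (background 14.9%), led by PARP9 at 1.14 ± 0.12, with PARP12 at 0.99 ± 0.14, PARP14 at 0.95 ± 0.14 and DTX3L at 0.49 ± 0.09. Against olaparib there, 4 were higher and 0 lower (background 7.48%), with PARP9 at 1.09 ± 0.12, PARP12 at 0.87 ± 0.14, PARP14 at 0.74 ± 0.14 and DTX3L at 0.41 ± 0.09. The last of these was lost without combination replicate 2 (adjusted p = 0.0687) or olaparib replicate 2 (adjusted p = 0.0553, edgeR). PARP10 gave 0.22 ± 0.08 in labelled MOLM-13 against either agent, not called (adjusted p = 0.0842 against LAA and 0.134 against olaparib, edgeR). Without LAA replicate 3 the PARP10 difference from LAA was 0.29 and called (adjusted p = 0.0314, edgeR).

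The interaction asks whether the combination exceeded the sum of both single effects on the log2 scale. In THP-1 it did so for 5 of 7 genes, with 0 below the sum (background 7.57%). PARP12 exceeded the sum by 1.07 ± 0.14 (adjusted p = 7.05e-06), PARP10 by 0.86 ± 0.10 (adjusted p = 1.79e-06), PARP9 by 0.68 ± 0.14 (adjusted p = 0.00147), PARP14 by 0.68 ± 0.11 (adjusted p = 0.000173) and DTX3L by 0.53 ± 0.10 (adjusted p = 0.000611, edgeR). In labelled MOLM-13 the interaction was called for 2 of 7, both positive (background 2.04%): PARP9 at 0.89 ± 0.17 (adjusted p = 0.00653) and PARP12 at 0.90 ± 0.21 (adjusted p = 0.0222, edgeR). The PARP12 call was lost when LAA replicate 1, combination replicate 2, olaparib replicate 1 or vehicle replicate 1 or 2 was left out (adjusted p = 0.0526, 0.0746, 0.0615, 0.0539 and 0.0590, edgeR), which left a count of 1. PARP14 gave 0.64 ± 0.19 and missed the threshold (adjusted p = 0.107), but passed without LAA replicate 2 (adjusted p = 0.0406) or olaparib replicate 3 (adjusted p = 0.0243, edgeR). It was also called by DESeq2 (adjusted p = 0.0377), and by edgeR with no filter on low counts (adjusted p = 0.000146) and with all 24 libraries in 1 fit (adjusted p = 0.0287). DTX3L gave 0.34 ± 0.13 and PARP10 0.27 ± 0.12, not called (adjusted p = 0.226 and 0.310, edgeR).

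**Figure D4:**
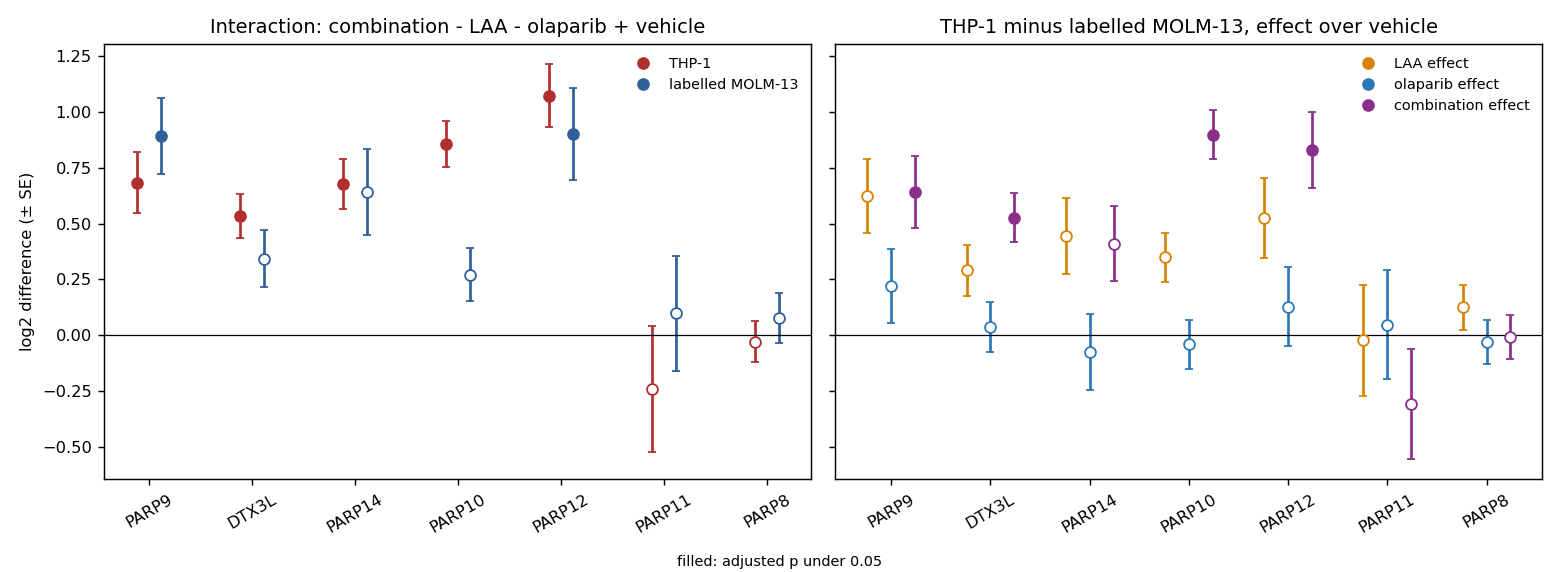
Left, the interaction of LAA and olaparib on the log2 scale for each gene in THP-1 and labelled MOLM-13; right, the difference between the lines (THP-1 minus labelled MOLM-13) in the effect of each treatment over vehicle. Bars are standard errors and filled points passed an adjusted p of 0.05; PARP12 is highest at the left with 1.07 in THP-1, and the filled points at the right are combination effects from 0.53 to 0.90.

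Effects were compared between the lines in a fit of all 24 libraries. The combination effect was larger in THP-1 than in labelled MOLM-13 for 4 of 7 genes, and smaller for 0 (background 2.13% of 17089 genes). PARP10 differed most, by 0.90 ± 0.11 (adjusted p = 3.14e-06), followed by PARP12 at 0.83 ± 0.17 (adjusted p = 0.00587), PARP9 at 0.64 ± 0.16 (adjusted p = 0.0288) and DTX3L at 0.53 ± 0.11 (adjusted p = 0.0069, edgeR). PARP14 differed by 0.41 ± 0.17, which was not called (adjusted p = 0.211) but was with no filter on low counts (0.40, adjusted p = 0.0381, edgeR). The PARP9 call was lost when combination replicate 1 or 3 or vehicle replicate 1 or 2 of labelled MOLM-13, or combination replicate 1 or 2 or vehicle replicate 2 of THP-1, was left out (adjusted p from 0.0534 to 0.105, edgeR), and under total-count scaling (adjusted p = 0.0516). The LAA effect differed for 0 of 7 (background 0.140%), with 5 at an unadjusted p under 0.05 in edgeR, each larger in THP-1, and 0 called by DESeq2. The olaparib effect differed for 0 of 7 (background 0.00585%), with 0 at an unadjusted p under 0.05 in edgeR and 0 called by DESeq2. The line check stood lower in labelled MOLM-13 libraries with LAA and with the combination, at 5.34 and 4.09 CPM against 31.6 CPM with vehicle, and a shift in cells and an effect of treatment cannot be told apart in these differences.

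Levels also differed between the lines within a treatment. With LAA 6 of 7 genes were higher in THP-1 than in labelled MOLM-13 and 0 lower (background 3.39%), with olaparib 4 and 0 (background 4.81%), with the combination 5 and 0 (background 13%) and with vehicle 3 and 0 (background 4.48%). PARP9 had the largest difference in each: 1.47 ± 0.12 with LAA, 1.07 ± 0.12 with olaparib, 1.49 ± 0.11 with the combination and 0.85 ± 0.12 with vehicle (adjusted p from 1.76e-11 to 1.11e-05, edgeR). PARP14 was also called in all 4, at 1.14 ± 0.12 with LAA and 0.69 ± 0.12 with vehicle, and so was DTX3L, at 0.61 ± 0.08 with LAA and 0.32 ± 0.08 with vehicle. The DTX3L difference was lost with vehicle when vehicle replicate 1 of labelled MOLM-13 or vehicle replicate 1 or 3 of THP-1 was left out (adjusted p = 0.0923, 0.0696 and 0.0528), and with olaparib without olaparib replicate 2 of labelled MOLM-13 or olaparib replicate 1 of THP-1 (adjusted p = 0.0528 and 0.0557, edgeR). PARP12 was called with LAA (0.93 ± 0.13), the combination (1.24 ± 0.12) and olaparib (0.54 ± 0.13), the last not without olaparib replicate 3 of THP-1 (adjusted p = 0.0837, edgeR). PARP10 was called with LAA (0.59 ± 0.08) and the combination (1.14 ± 0.08).

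With vehicle, PARP12 gave 0.41 ± 0.13 and PARP10 0.24 ± 0.08, both just outside the threshold (adjusted p = 0.0627 and 0.0764, edgeR). PARP12 passed without combination replicate 2 or 3 of labelled MOLM-13 (adjusted p = 0.0193 and 0.0415), and PARP10 without LAA replicate 3 of labelled MOLM-13 (adjusted p = 0.0491, edgeR). PARP8 was called only with LAA, at 0.26 ± 0.07 (adjusted p = 0.0349, edgeR). That call was lost without any 1 of LAA replicates 1, 2 and 3 of THP-1 or LAA replicates 1 and 3 of labelled MOLM-13 (adjusted p from 0.0630 to 0.240, edgeR).

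Over vehicle, the other PARP genes and the genes that remove ADP-ribose were called at about the share of all genes or below it. Of 11 further PARP genes, all tested, 1 rose and 1 fell with the combination in THP-1 (background 27.1%): PARP6, a mono-ADP-ribosyltransferase, rose by 0.54 ± 0.13 (adjusted p = 0.00229) and TNKS2, a tankyrase, fell by 0.26 ± 0.09 on the log2 scale (adjusted p = 0.0229, edgeR). In labelled MOLM-13 1 rose (background 12.2%), ZC3HAV1, an antiviral zinc-finger protein without catalytic activity, by 0.37 ± 0.11 (adjusted p = 0.0345, edgeR). LAA and olaparib alone moved 0 of the 11 in either line at an adjusted p under 0.05. The backgrounds were 1.49% and 0.269% in THP-1 and 1.88% and 0.00619% in labelled MOLM-13, so a count of 0 says little. At an unadjusted p under 0.05 in edgeR there were 1 and 0 in THP-1 and 2 and 1 in labelled MOLM-13. The median of the 11 with the combination was 0.00 in THP-1 and 0.16 in labelled MOLM-13.

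Among 9 tested genes whose products remove or degrade ADP-ribose, 2 rose and 1 fell with the combination in THP-1 (background 27.1%). ADPRS, which removes ADP-ribose from serine, rose by 0.52 ± 0.10 (adjusted p = 0.000352), OARD1, which removes terminal ADP-ribose from proteins, by 0.50 ± 0.12 (adjusted p = 0.0019), and NUDT5, which hydrolyses free ADP-ribose, fell by 0.35 ± 0.08 on the log2 scale (adjusted p = 0.00214, edgeR). In labelled MOLM-13 NUDT5 fell by 0.40 ± 0.09 (adjusted p = 0.00531, edgeR) and the other 8 were not called (background 12.2%). Against LAA in THP-1, the combination had 1 of the 9 higher and 3 lower (background 20.3%). Against olaparib there it had 3 higher and 1 lower (background 24.2%). In labelled MOLM-13 it moved 0 of the 9 against LAA (background 14.9%) and 0 against olaparib (background 7.48%). Of the deltex ligases, 2 of 4 were tested. DTX4 fell by 0.50 ± 0.17 with the combination in THP-1 (adjusted p = 0.0288, edgeR, background 27.1%). In labelled MOLM-13 it fell by 1.38 ± 0.17 (adjusted p = 1.97e-05, edgeR, background 12.2%), and both falls were opposite in sign to DTX3L. With LAA alone DTX4 fell by 0.86 ± 0.17 in labelled MOLM-13 (adjusted p = 0.00932, edgeR, background 1.88%). With vehicle DTX4 was called lower in THP-1 than in labelled MOLM-13 (log2 difference −0.68), and with LAA the difference was 0.19 and not called. The part of the shift in the line check genes in the falls of DTX4 was not tested.

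Of 14 tested genes of interferon signalling, 6 rose and 2 fell with the combination in THP-1 (background 27.1%), and 4 rose and 1 fell in labelled MOLM-13 (background 12.2%). USP18, which removes ISG15 and dampens the type I receptor, rose 7.56-fold in THP-1 (2.92 ± 0.11; adjusted p = 4.99e-17) and 3.66-fold in labelled MOLM-13 (1.87 ± 0.16; adjusted p = 1.92e-07, edgeR). IRF7 rose 3.24-fold in THP-1 (1.70 ± 0.09; adjusted p = 4.49e-14) and 1.73-fold in labelled MOLM-13 (0.79 ± 0.15; adjusted p = 0.00142, edgeR). The genes that fell were the receptor gene IFNAR1 (−0.18 ± 0.07; adjusted p = 0.0392) and the kinase gene JAK1 (−0.35 ± 0.08; adjusted p = 0.00191) in THP-1, and the receptor gene IFNGR2 in labelled MOLM-13 (−0.36 ± 0.10; adjusted p = 0.0237, edgeR). With LAA in THP-1, 3 of the 14 rose and 0 fell (background 1.49%). Among them USP18 rose by 1.12 ± 0.12 (adjusted p = 4.81e-07) and IRF7 by 0.56 ± 0.09 (adjusted p = 0.00055, edgeR). LAA in labelled MOLM-13 and olaparib in either line moved 0 of the 14 at an adjusted p under 0.05. The backgrounds were 1.88% for labelled MOLM-13 LAA, 0.269% for THP-1 olaparib and 0.00619% for labelled MOLM-13 olaparib, so these counts say little. At an unadjusted p under 0.05 in edgeR there were 2, 3 and 2 in the same order. The ligand genes IFNB1 and IFNG were too low to be tested.

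Likeness of pattern was measured as the root mean square difference (RMS) of log2 fold changes over vehicle across the 6 treated groups, searched over 13012 protein-coding genes. The 6 effects share vehicle libraries within a line, and the measure counts the size of a change as well as its direction. PARP9 lay nearest to IFIH1 (RMS 0.129), CMPK2 (0.136) and MOCOS (0.137). DTX3L lay nearest to PML (0.076), APOL6 and HLA-F (0.081 each), and PARP14 to HELZ2 (0.089), EIF2AK2 (0.106) and SP110 (0.115). PARP10 lay nearest to LAP3 (0.107), TAP1 (0.12) and PSMB9 (0.127), and PARP12 to SLC22A4 (0.111), IRF7 (0.123) and SP110 (0.136). For PARP8 (RBM47, ETV3 and RAB3GAP1, RMS 0.016 to 0.024) and PARP11 (TMEM170B, TAOK1 and SOS2, 0.035 to 0.044) the small values come from profiles close to 0. Among the 7 genes themselves the nearest pairs were PARP11 with PARP8 (0.139), PARP14 with PARP12 (0.176) and DTX3L with PARP10 (0.22). The first of these is again a pair of profiles close to 0. PARP9 and its partner DTX3L were 0.541 apart, which is a difference in size. Both lay above 0 in all 6 effects, with PARP9 the larger in each. With the combination they gave 1.97 and 1.07 in THP-1, and 1.34 and 0.56 in labelled MOLM-13.

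PARP9, DTX3L and PARP14 lie within chr3:122527924-122730840, which made it possible to look at the genes around them. Of 9 other protein-coding genes between or within 200 kb of them, 8 were tested. With the combination 1 rose and 1 fell in THP-1 (background 27.1%), CSTA by 0.24 ± 0.08 (adjusted p = 0.0174) and WDR5B by −0.57 ± 0.17 (adjusted p = 0.0117), and in labelled MOLM-13 1 fell (background 12.2%), FAM162A by −0.50 ± 0.15 (adjusted p = 0.0403, edgeR). PARP15, which lies between DTX3L and PARP14, gave −0.19 ± 0.18 in THP-1 and −0.13 ± 0.25 in labelled MOLM-13, not called by edgeR (adjusted p = 0.503 and 0.802).

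**Figure D5:**
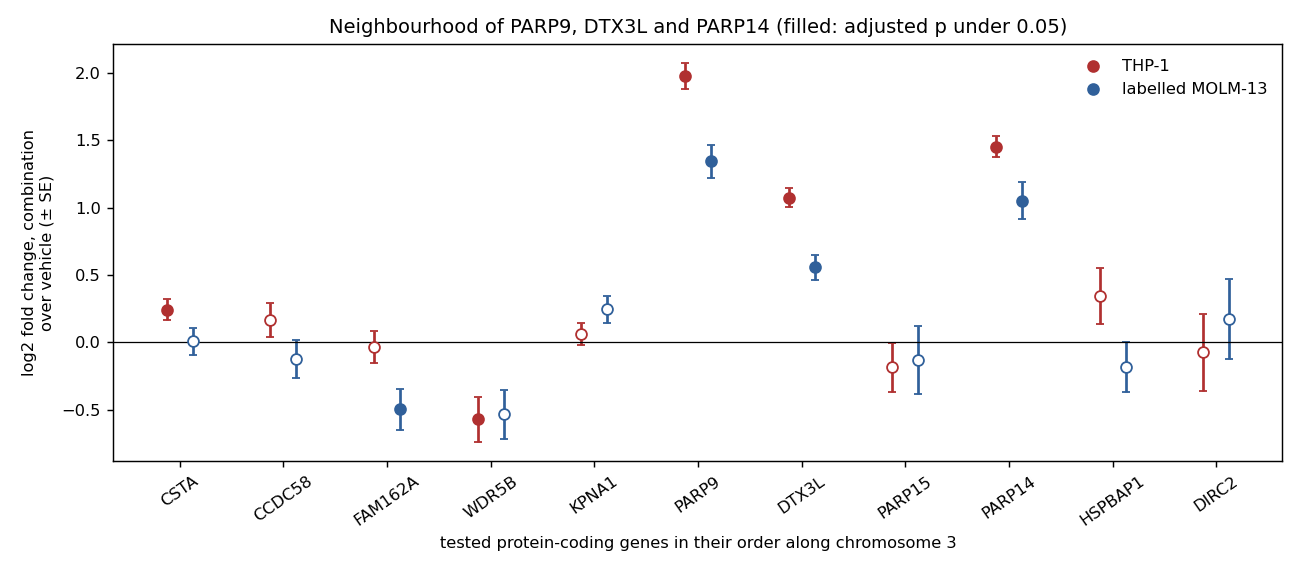
Log2 fold change of the combination over vehicle for the tested protein-coding genes around PARP9, DTX3L and PARP14, in their order along chromosome 3, with standard errors, for THP-1 and labelled MOLM-13; filled points passed an adjusted p of 0.05. PARP9, DTX3L and PARP14 lie between 0.56 and 1.97, and PARP15 between them lies below 0 in both lines.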

How the data were processed

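Per the labels' protocols, RNA was selected by polyA and made into 24 libraries that keep no strand information. HISAT2, SAMtools and DESeq2 are named with build hg38, and without versions, in the submitters' processing notes. The counting tool and its annotation were not given in the sources used here. Raw whole-number counts per gene make up the deposited count table. The deposited FPKM table, by the authors, is scaled by gene length and library size, and it was used for levels between genes and for alternatives.

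Counts were tested with edgeR 4.0.16 (R 4.3.3): TMM scaling, filterByExpr defaults, the quasi-likelihood F test and Benjamini-Hochberg adjustment over all genes tested, with a threshold of 0.05. Each line had its own fit of 12 libraries, and differences between lines used all 24. Standard errors are the log2 fold change over the square root of F. CPM values use TMM factors over the 24 libraries. The edgeR fit was tried on simulated THP-1 counts for LAA against vehicle only, with the same spread set for every gene. Labelled MOLM-13, the interactions and the differences between lines were not simulated. Of library pairs within a group, none had identical counts. By chi-square per gene, larger for less alike pairs, THP-1 pairs gave 4.08 to 12.75. In labelled MOLM-13, replicate 3 stood apart with LAA (19.06 and 28.25, against 5.91 for replicates 1 and 2). It also did with olaparib (22.39 and 28.28, against 4.50). With vehicle, replicate 1 stood apart (15.75 and 14.59, against 5.67 for replicates 2 and 3). The part of this spread in uncalled effects there was not tested.

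The genes and all lists were chosen with earlier results of these data known. Beside the 7 genes, the text names called genes of the other lists with the smallest adjusted p, at most 3 per list and comparison, and the 3 genes most like each of the 7. Some genes that this rule names are not reported here. The line check genes, overlaps, neighbours, marker genes and falling interferon genes are named outside that rule. Alternatives were other scalings, no filter, DESeq2 1.42.0, limma 3.58.1 on log2(FPKM + 1) and log2(FPKM + 0.1), all 24 libraries in 1 fit, only the 6 libraries of a comparison, a replicate block and leaving out each library. Depth limits precision most for PARP11. Promoter windows are RefSeq's, GRCh38.p14, and overlaps were read from GENCODE annotation of hg38.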

Additional observations from a re-analysis of the deposited data

Results flagged for a closer look

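The effect of the combination over vehicle differed between the lines for 4 of the 7 genes, by edgeR's test of the difference itself. As THP-1 minus labelled MOLM-13 on the log2 scale, the difference was 0.642 for PARP9 (effects 1.97 and 1.34), 0.527 for DTX3L (1.07 and 0.56), 0.897 for PARP10 (1.05 and 0.17) and 0.829 for PARP12 (1.78 and 0.96). In each gene all 3 THP-1 combination libraries lay above all 3 labelled MOLM-13 combination libraries, but the vehicle libraries were separated in the same way. This separation is of levels and cannot tell a difference in effect from a difference already present with vehicle. The part of the shift in the line check genes of labelled MOLM-13 was not tested.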

How the results depend on the processing

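Of 133 values for a gene in a comparison, 62 were called, and 51 of those stayed called in every alternative run, with 0 changes of sign. The 11 that were lost in some alternative and the 8 of 71 uncalled values that gained a call are given by library above where 1 library decided them. Other settings ended the calls of PARP10 with LAA in THP-1 (limma on both FPKM scales, adjusted p = 0.108 and 0.106; all 24 libraries in 1 fit, 0.0600), PARP12 for the interaction in labelled MOLM-13 (limma, 0.0815 and 0.0751) and PARP8 between lines with LAA (no filter, 0.0513). They added PARP10 in labelled MOLM-13 against LAA (total-count scaling, 0.0183; all 24 libraries, 0.0461) and against olaparib (total-count scaling, 0.0315), and PARP10 between lines with vehicle (DESeq2, 0.0440). The number of the 7 genes called kept within 1.5 times in 443 of 459 recomputed counts. With olaparib in THP-1 it was 0 with limma on either FPKM scale and with all 24 libraries in 1 fit, and 0 to 1 when 1 library was left out. With LAA in THP-1 it was 2 to 5 when 1 library was left out. For the interaction in labelled MOLM-13 it was 1 with limma on either scale and 1 to 3 when 1 library was left out. For the difference between lines in the LAA effect it was 2 with no filter on low counts, PARP9 and PARP14. The cause was not tested. Of the 71 uncalled values, 20 changed sign in some alternative. Total-count scaling gave 0.052 for PARP11 and 0.055 for PARP8 (labelled MOLM-13 combination against olaparib), 0.0046 for PARP11 (between lines, LAA effect), and 0.005 for PARP10 and 0.0175 for PARP8 (between lines, olaparib effect). No filter gave −0.014 for PARP8 (THP-1 combination against LAA), −0.012 (against olaparib) and 6e-04 (labelled MOLM-13 combination against olaparib). Leaving out 1 library gave the other changes of sign, as ranges of log2 values. For PARP8 these were −0.015 to 0.068 (THP-1 LAA against vehicle), −0.017 to 0.074 (THP-1 olaparib against vehicle), −0.016 to 0.071 (THP-1 combination against vehicle), −0.028 to 0.030 (THP-1 combination against LAA), −0.045 to 0.040 (THP-1 combination against olaparib), −0.075 to 0.015 (THP-1 interaction), −0.009 to 0.083 (labelled MOLM-13 combination against vehicle), −0.069 to 0.023 (labelled MOLM-13 combination against olaparib), −0.078 to 0.015 (between lines in the olaparib effect), −0.057 to 0.051 (between lines in the combination effect). For PARP11 these were −0.069 to 0.034 (labelled MOLM-13 combination against olaparib), −0.0039 to 0.210 (labelled MOLM-13 interaction), −0.126 to 0.088 (between lines in the LAA effect), −0.103 to 0.164 (between lines in the olaparib effect), −0.004 to 0.208 (THP-1 against labelled MOLM-13 with LAA). For PARP10 these were −0.130 to 0.010 (labelled MOLM-13 LAA against vehicle), −0.081 to 0.0028 (between lines in the olaparib effect). For PARP14 these were −0.014 to 0.229 (labelled MOLM-13 LAA against vehicle), −0.205 to 0.078 (between lines in the olaparib effect). For DTX3L these were −0.046 to 0.109 (between lines in the olaparib effect).

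Over all genes, numbers called moved by more than 1.5 times in some alternative: 114 to 383 against 243 (THP-1 LAA against vehicle), 7 to 124 against 44 (THP-1 olaparib against vehicle), 797 to 1478 against 1237 (THP-1 interaction), 113 to 564 against 303 (labelled MOLM-13 LAA against vehicle), 0 to 194 against 1 (labelled MOLM-13 olaparib against vehicle), 1043 to 2622 against 1972 (labelled MOLM-13 combination against vehicle), 1029 to 3168 against 2413 (labelled MOLM-13 combination against LAA), 624 to 1678 against 1208 (labelled MOLM-13 combination against olaparib), 206 to 555 against 329 (labelled MOLM-13 interaction), 13 to 102 against 24 (between lines in the LAA effect), 0 to 34 against 1 (between lines in the olaparib effect), 211 to 639 against 364 (between lines in the combination effect), 454 to 875 against 765 (THP-1 against labelled MOLM-13 with vehicle), 327 to 786 against 579 (THP-1 against labelled MOLM-13 with LAA), 390 to 935 against 822 (THP-1 against labelled MOLM-13 with olaparib), 1039 to 2622 against 2221 (THP-1 against labelled MOLM-13 with combination). Libraries with the same number did not deviate together (correlations −0.126 to 0.084 in THP-1 and −0.142 to 0.228 in labelled MOLM-13, and 2 of 12 and 5 of 12 libraries closest to their own number), so numbers were not taken as pairs. With the replicate block, 5 genes were called with LAA, 1 with olaparib and 5 with the combination in THP-1, and 0, 0 and 4 in labelled MOLM-13. In the fit of both lines the block ended the calls of DTX3L with vehicle and PARP8 with LAA between the lines. The count of 15 line check genes limits any statement on the cells in labelled MOLM-13.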
